A study of Mus musculus with 31 samples.

Results

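The genes described here are 9 mouse genes of lipoprotein secretion and its angiopoietin-like regulators, *Apoa1*, *Apoa4*, *Apoa5*, *Apob*, *Apoc3*, *Mttp*, *Angptl4*, *Angptl8* and *Lipc*. They were chosen by name, and their Ensembl identifiers were found through GENCODE vM21. All 9 were present in both count tables, which hold 35275 genes for the insulin experiment and 54532 for the ERRα3SA experiment.

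RNA was sequenced in 31 samples of 8 groups, from C57BL/6N mice kept on a standard diet. In the insulin experiment, WT and ERRα-/- (KO) mice went without food for 12 h, then received saline or insulin (1 unit/kg, intraperitoneal), and livers were taken after 4 h. There were 4 livers each of WT saline, WT insulin and KO saline and 3 of KO insulin (replicates 1, 2 and 4). In the second experiment, liver and skeletal muscle came from ERRα3SA (3SA) knock-in mice, whose ERRα carries alanine in place of 3 serines, and from WT littermates, with 4 samples in each of the 4 groups. Mice were 2 to 3 months old. The 3SA mice and their littermates were fed the standard diet, and the labels give them no treatment. Whether a liver and a muscle came from 1 mouse is not stated. The KO and the 3SA allele are present in the whole body. Total counts per sample ran from 35871419 to 48317108 in the insulin experiment and from 20481405 to 33412022 in the 3SA experiment.

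Hepatocytes load triglyceride onto apolipoprotein B with the help of the microsomal triglyceride transfer protein and secrete the particle as VLDL, while other apolipoproteins join it at its surface or form HDL. Lipases in the capillaries then hydrolyse the triglyceride, and apolipoproteins and angiopoietin-like proteins set how active these lipases are. In the liver, fasting and insulin are known to act on several of these genes in opposite ways, and ERRα is a nuclear receptor known for its control of energy metabolism.

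The label of each genotype was first checked with *Esrra*, the gene of ERRα. Its level, in CPM (counts normalised to the size of each library by TMM), was 32.2, 51.3, 42.7 and 40.6 in the WT saline livers and 1.63, 0.703, 1.15 and 1.04 in the KO saline livers. With insulin it was 53.8, 96.1, 56.0 and 59.0 in WT and 0.833, 0.576 and 0.299 in KO. Every KO liver lay far below every WT liver, with a log2 fold change of -5.20 with saline (edgeR adjusted p 2.58e-06) and -6.86 with insulin (adjusted p 3.55e-05). In the second experiment *Esrra* was 28.4, 26.9, 28.0 and 28.7 in WT littermate livers and 29.2, 24.8, 21.4 and 18.7 in 3SA livers. In muscle it was 90.5, 82.4, 67.2 and 78.1 in WT littermates and 23.6, 135, 128 and 100.1 in 3SA mice. The 3SA allele alters the protein, so the mRNA level is no check of that genotype, and 3SA muscle 1 was far below the other 7 muscles.

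Several libraries stood apart. WT insulin liver 2 had fewer counts on long transcripts than its group, with a difference between long and short transcripts of -0.45 on the log2 scale, and the lowest mitochondrial share of its group, 1.88%. In 3SA liver 4 the 5 hepatocyte markers (*Alb*, the most abundant, *Tat*, *Cps1*, *Serpina1c* and *Ahsg*) summed to 49322 CPM, against 92721, 78534 and 93916 in 3SA livers 1, 2 and 3. In 3SA muscle 1 the mitochondrial share was 19.3% and the difference between long and short transcripts 0.54. In 3SA muscle 4 the 4 macrophage markers (*Adgre1*, *Clec4f*, *Cd68* and *Cd5l*) summed to 41.0 CPM, where the other 7 muscles had 5.71 to 9.32.

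Transcripts of the exocrine pancreas were also found in some livers. The sum of 4 markers (*Prss2*, *Cela1*, *Cpa1* and *Pnlip*) was 691, 37.8, 4.05 and 986 CPM in WT saline livers, with *Pnlip* the most abundant in livers 1, 2 and 4. It was 12.2, 69.6, 6.76 and 118 in WT insulin livers, 169, 22.1, 4.13 and 82.5 in KO saline livers and 8.10, 5.68 and 6.19 in KO insulin livers, each with *Cela1* the most abundant. In the 3SA experiment it was 127, 38.8, 57.1 and 47.9 in WT littermate livers and 436, 34.6, 25.1 and 41.9 in 3SA livers, again with *Cela1* first. There *Prss2*, *Cpa1* and *Pnlip* were each at 0 or 1 counts in livers 2, 3 and 4 of both groups. They were at 0 or 1 counts also in WT saline liver 3, WT insulin liver 3, KO saline liver 3 and KO insulin liver 2. The sums of these livers are thus *Cela1* alone or nearly so. WT saline livers 1 and 4 carried the most, and insulin in WT liver and KO against WT with saline are therefore also given without them. The part of these transcripts in any result was not tested beyond that.

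To compare levels between genes, CPM were divided by the exon length in kb. In WT saline livers *Apoa1*, the main protein of HDL, had a mean of 6015 CPM per kb. *Apob* followed with 911, *Apoc3* with 660 and *Apoa5* with 644, and these 3 neighbours overlapped one another in order. *Apoa4* had 175 and *Mttp* 84.4, each apart from its neighbours. *Lipc* with 41.9 and *Angptl4* with 41.3 overlapped, and *Angptl8* came last with 4.41.

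The order was not the same in the other groups of livers. In WT insulin livers *Apoa4* had 380 CPM per kb and overlapped *Apoa5* with 552, and *Angptl4* had 75.9 and overlapped *Mttp* with 91.3. In KO saline livers *Apoa4* had 372 and lay apart from *Apoa5* with 741. In KO insulin livers *Angptl4* had 79.1, apart from *Mttp* with 92.2 above it and *Lipc* with 36.3 below it. *Apoa1* was first and *Angptl8* last in all 4 groups of this experiment.

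In WT littermate livers the order was *Apoa1* with 4987 CPM per kb, *Apoc3* with 1751, *Apoa5* with 444, *Apob* with 317, *Lipc* with 91.2 and *Mttp* with 60.1, each apart from the next. *Apoa4* with 39.4 and *Angptl8* with 32.6 overlapped, and *Angptl4* was last with 15.9. In 3SA livers the first 2 places were the same, and *Angptl8* with 48.5 overlapped *Apoa4* with 40.7, which overlapped *Angptl4* with 23.2. The tables of the 2 experiments were normalised separately, and the mice of the first were fasted and injected, so no level was tested between them. The plot of levels per kb shows these orders in untreated or saline WT tissue, with the livers of both experiments beside the muscles.

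**Figure D1:**
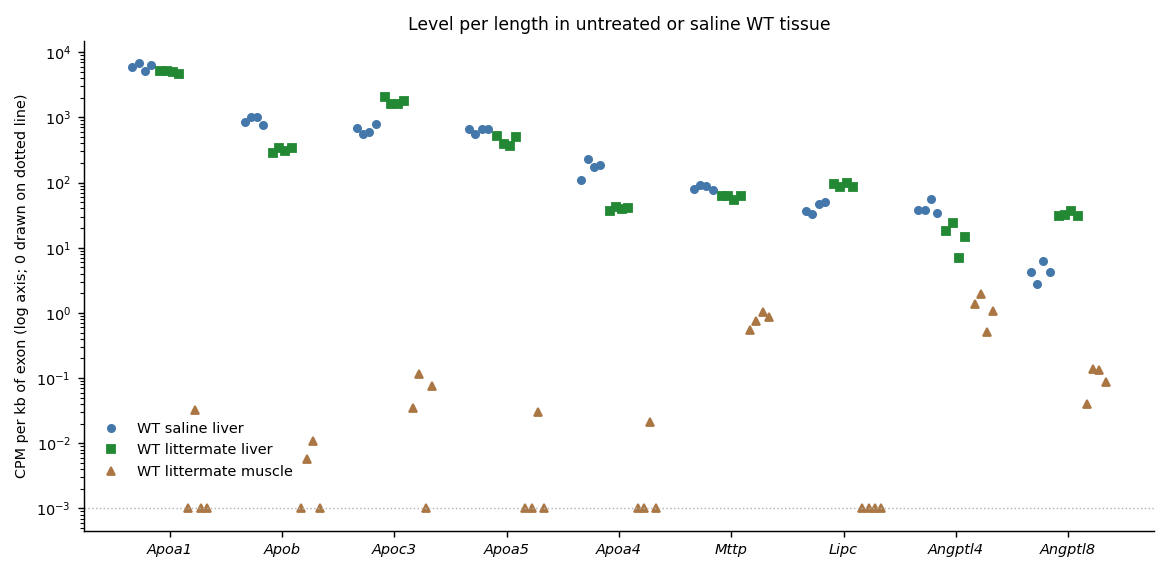
Level of each member in CPM per kb of exon (log axis, 0 drawn on the dotted line) in WT saline livers, WT littermate livers and WT littermate muscles, with 1 point for each sample. *Apoa1* was highest in both groups of livers, with means of 6015 and 4987, and only *Angptl4* and *Mttp* stood near 1 in muscle.

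A gene was called when its unadjusted p was under 0.05 and its fold change at least 1.2. The study set the same cut-offs on DESeq2 results, while the p of the planned fits here is that of edgeR. Intervals of fold changes come from the same edgeR test, with its degrees of freedom. Insulin against saline in WT liver asks what the injection changes, and 2 of the 9 members were called, *Apoa4* and *Angptl4*, beside 17.2% of the 13463 genes tested. Both passed an adjusted p of 0.05, beside 3.16% of all genes, and for both the groups did not overlap, beside 12.4% of all genes. By count, 5 members were higher and 4 lower. Their median log2 fold change was 0.11 and their median absolute one 0.22, where all genes had 0.0036 and 0.25. The share of called members is near that of all genes, so the results below are about single genes and not about the list.

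In KO liver, insulin against saline gave 3 called members, *Angptl4*, *Angptl8* and *Apoc3*, beside 17.2% of 13684 genes. None passed the adjusted p in edgeR, beside 2.91% of all genes, and 4 did not overlap, beside 17.6%. Again 5 were higher and 4 lower, with medians of 0.06 and 0.25 absolute, against -0.02 and 0.22 for all genes.

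KO against WT asks what the loss of ERRα changes. With saline, 2 members were called, *Apoa4* and *Angptl4*, beside 11.3% of 13481 genes, and none passed the adjusted p, beside 0.0816%. Only *Apoa5* did not overlap, beside 7.14% of all genes. The medians were 0.16 and 0.20 absolute, with 0.0037 and 0.19 for all genes. With insulin, 1 member was called, *Angptl8*, beside 9.99% of 13665 genes. None passed the adjusted p, beside 0.0585%, and none was free of overlap, beside 12.4%. Here the members' medians were 0.05 and 0.12 absolute, with -0.02 and 0.22 for all genes. These 4 comparisons share their groups in pairs, so one group's values enter more than 1 of them.

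Whether insulin acted differently in KO and in WT was tested as the difference between the 2 insulin effects. Called were 2 members, *Apoa4* and *Apoc3*, beside 8.79% of 14670 genes. By edgeR no gene of the whole table passed the adjusted p (0%), while 1289 had an unadjusted p under 0.05 and DESeq2 gave 20 adjusted calls. The members' medians were -0.03 and 0.22 absolute, with -0.02 and 0.30 for all genes. The plot of fitted changes in the livers shows each member with its interval, and only *Apoa4*, *Angptl4* and *Angptl8* have fitted values beyond 0.8 in size.

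**Figure D2:**
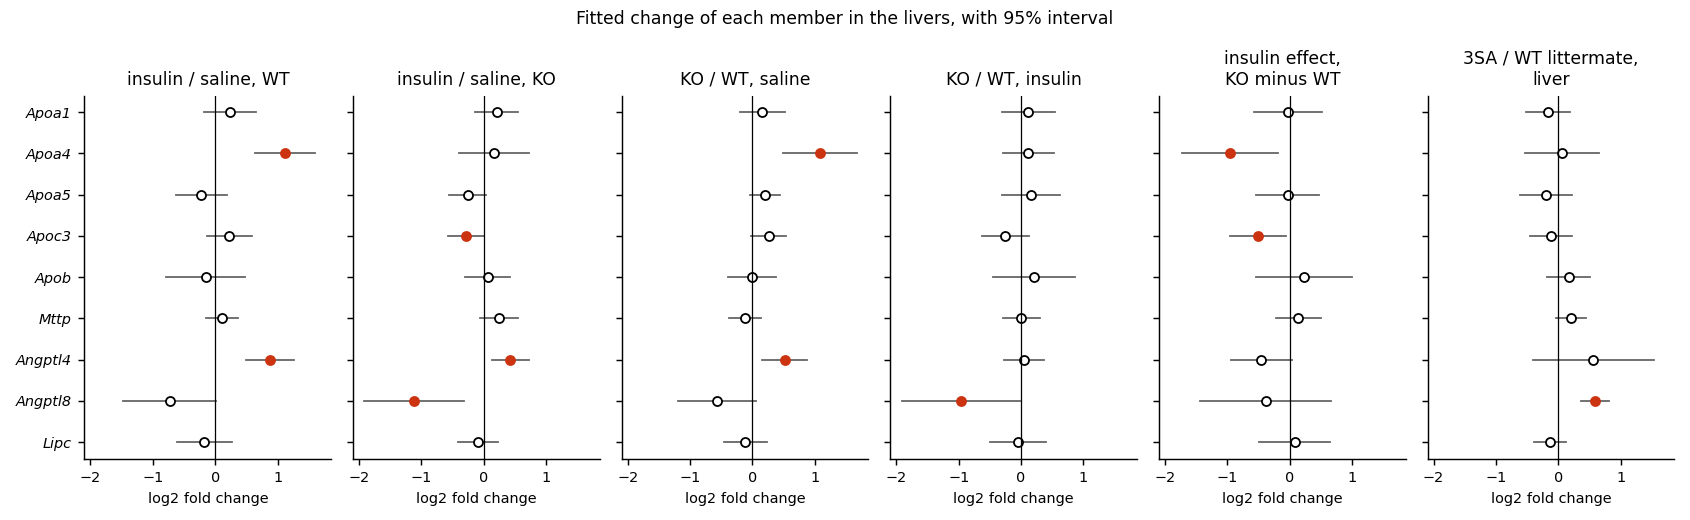
Fitted log2 fold change of each member in liver for insulin, KO and 3SA comparisons, with 95% intervals, filled where the member was called. With insulin in WT livers *Apoa4* stood at 1.12 and *Angptl4* at 0.88, while *Apob*, *Mttp* and *Lipc* stayed within 0.25 of 0 in every panel.

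*Apoa4* codes for an apolipoprotein of nascent triglyceride-rich particles and HDL. In WT saline livers its level was 201, 421, 314 and 338 CPM. In WT insulin livers it was 672, 841, 723 and 524 CPM. All 4 insulin livers lay above all 4 saline livers, the closest pair being saline liver 2 and insulin liver 4. *Apoa4* rose with a log2 fold change of 1.12 (95% interval 0.64 to 1.60, edgeR adjusted p 0.0215, 4 livers against 4). The call held in all 14 alternatives, from 0.91 to 1.28, with adjusted p from 2.10e-05 to 0.278. Without WT saline liver 3 the adjusted p was 0.0670, without WT saline liver 4 it was 0.0733, and without WT saline livers 1 and 4 the log2 fold change was 0.91 with an adjusted p of 0.278.

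In KO livers *Apoa4* was 952, 405, 785 and 557 CPM with saline and 874, 767 and 624 CPM with insulin. The KO insulin livers lay within the range of the KO saline livers, and only 1 KO saline liver, liver 2, was as low as a WT saline liver. Insulin against saline in KO liver gave 0.16 and did not pass the test. KO against WT with saline gave 1.09, called with an adjusted p of 0.185 (0.00298 to 0.590 over the alternatives), and KO saline liver 2 lay below WT saline liver 2, so these groups overlapped. That call held in all 14 alternatives, from 0.87 to 1.27. KO against WT with insulin gave 0.12 and did not pass. The insulin effect in KO was lower than that in WT by the interaction, -0.96 (95% interval -1.72 to -0.19, adjusted p 0.506). Without KO insulin liver 4 this was -0.84 and was no longer called, and the other 18 alternatives kept it, from -1.14 to -0.74.

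Enterocytes also express *Apoa4*, so their markers were read beside it. The sum of 5 markers (*Fabp2*, *Vil1*, *Lct*, *Alpi* and *Sis*) was 41.4, 21.2, 40.0 and 48.3 CPM in WT saline livers, 32.6, 43.1, 53.1 and 43.9 in WT insulin livers, 52.8, 38.6, 46.7 and 43.6 in KO saline livers and 38.0, 28.5 and 40.6 in KO insulin livers. *Fabp2*, which is also expressed in liver, was the most abundant in every liver, and up to 4 of the 5 were at 0 counts. WT saline liver 2, with the lowest sum, had the highest *Apoa4* of its group. In KO saline livers the sum and *Apoa4* ranked the livers in the same order, and in the insulin groups they did not. The part of enterocytes in the *Apoa4* results was not tested. In bulk tissue, fewer cells of a type and less RNA per cell cannot be told apart.

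Other markers moved with insulin in WT liver. Of the 5 hepatocyte markers, with *Alb* the most abundant and none at 0, *Tat* was called higher (0.85, adjusted p 0.127). Their sum was 84112, 82073, 74295 and 81680 CPM with saline and 80323, 83283, 76043 and 82693 CPM with insulin. Of 5 skeletal muscle markers only *Acta1* and *Mylpf* passed the filter on low counts, and *Acta1* was called higher (5.15, adjusted p 0.171). The 5 summed to 0.439, 1.60, 1.83 and 1.07 CPM with saline, with *Mylpf* the most abundant, and to 3.22, 1.07, 69.7 and 0.831 CPM with insulin. In the insulin livers *Acta1* was the most abundant in liver 3, *Myh4* in liver 1 and *Mylpf* in livers 2 and 4. Up to 4 of the 5 were at 0 with saline and up to 3 with insulin. Of the 4 pancreatic markers *Cela1* (-2.42, adjusted p 0.270) and *Cpa1* (-3.81, adjusted p 0.283) were called lower, and *Kdr* of endothelium (-0.60) and *Lrat* of stellate cells (-0.88) were also lower. Other markers of endothelium (*Pecam1* 0.15, *Cdh5* -0.36, *Tie1* -0.05) and of stellate cells and fibroblasts (*Reln* -0.09, *Dcn* 0.21, *Col1a1* -0.54) were not called. Without WT insulin liver 3, the liver with the most muscle transcripts, *Apoa4* was 1.09 and called.

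With saline, KO against WT had 1 of 5 blood markers called, *Alas2*, lower without overlap (-0.67, adjusted p 0.155). The 5 (*Hba-a1*, *Hba-a2*, *Hbb-bs*, *Hbb-bt* and *Alas2*) summed to 169, 449, 263 and 257 CPM in WT and 269, 249, 149.9 and 178 CPM in KO, with *Hbb-bs* or *Alas2* the most abundant. Of the 4 macrophage markers *Adgre1* was called lower (-0.76, adjusted p 0.322), with sums of 123, 249.9, 153 and 172 CPM in WT and 143, 137, 131 and 142 CPM in KO and *Clec4f* or *Cd5l* the most abundant. *Kdr* (-0.43, adjusted p 0.374) was called lower among 4 endothelial markers, and *Col1a1* (-0.74, adjusted p 0.322) among 4 of stellate cells and fibroblasts. The others of these lists were not called: *Pecam1* 0.12, *Cdh5* -0.14, *Tie1* -0.07, *Lrat* -0.34, *Reln* -0.09 and *Dcn* 0.24. Their sums in WT saline livers are given below with *Gpihbp1*. In KO the endothelial list summed to 106, 99.3, 89.7 and 101 CPM, led by *Kdr*, and the other to 161, 167, 174 and 171 CPM, led by *Dcn*. *Tat* was called higher (0.59, adjusted p 0.385). None of these markers was at 0, and all but *Alas2* overlapped between the groups. In the interaction *Lrat* (0.82, adjusted p 0.495) and *Alas2* (0.50, adjusted p 0.556) were called. The part of these cell types in the results was not tested.

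On the other strand, 2 genes lie across *Apoa4*: *Gm47528* shares 34.9% of its exon bases and *Gm10680* 34.8%. Both stayed near 0, with 0 to 8 counts for *Gm47528*, listed in the 3SA table alone, and 0 for *Gm10680*. In the 3SA experiment *Apoa4* was 66.1, 75.6, 70.9 and 73.1 CPM in WT littermate livers and 40.4, 77.1, 121 and 56.5 CPM in 3SA livers. The 3SA livers lay on both sides of the tight WT littermates, and the log2 fold change of 0.05 did not pass. The plot of CPM by sample shows these values for every member and group.

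**Figure D3:**
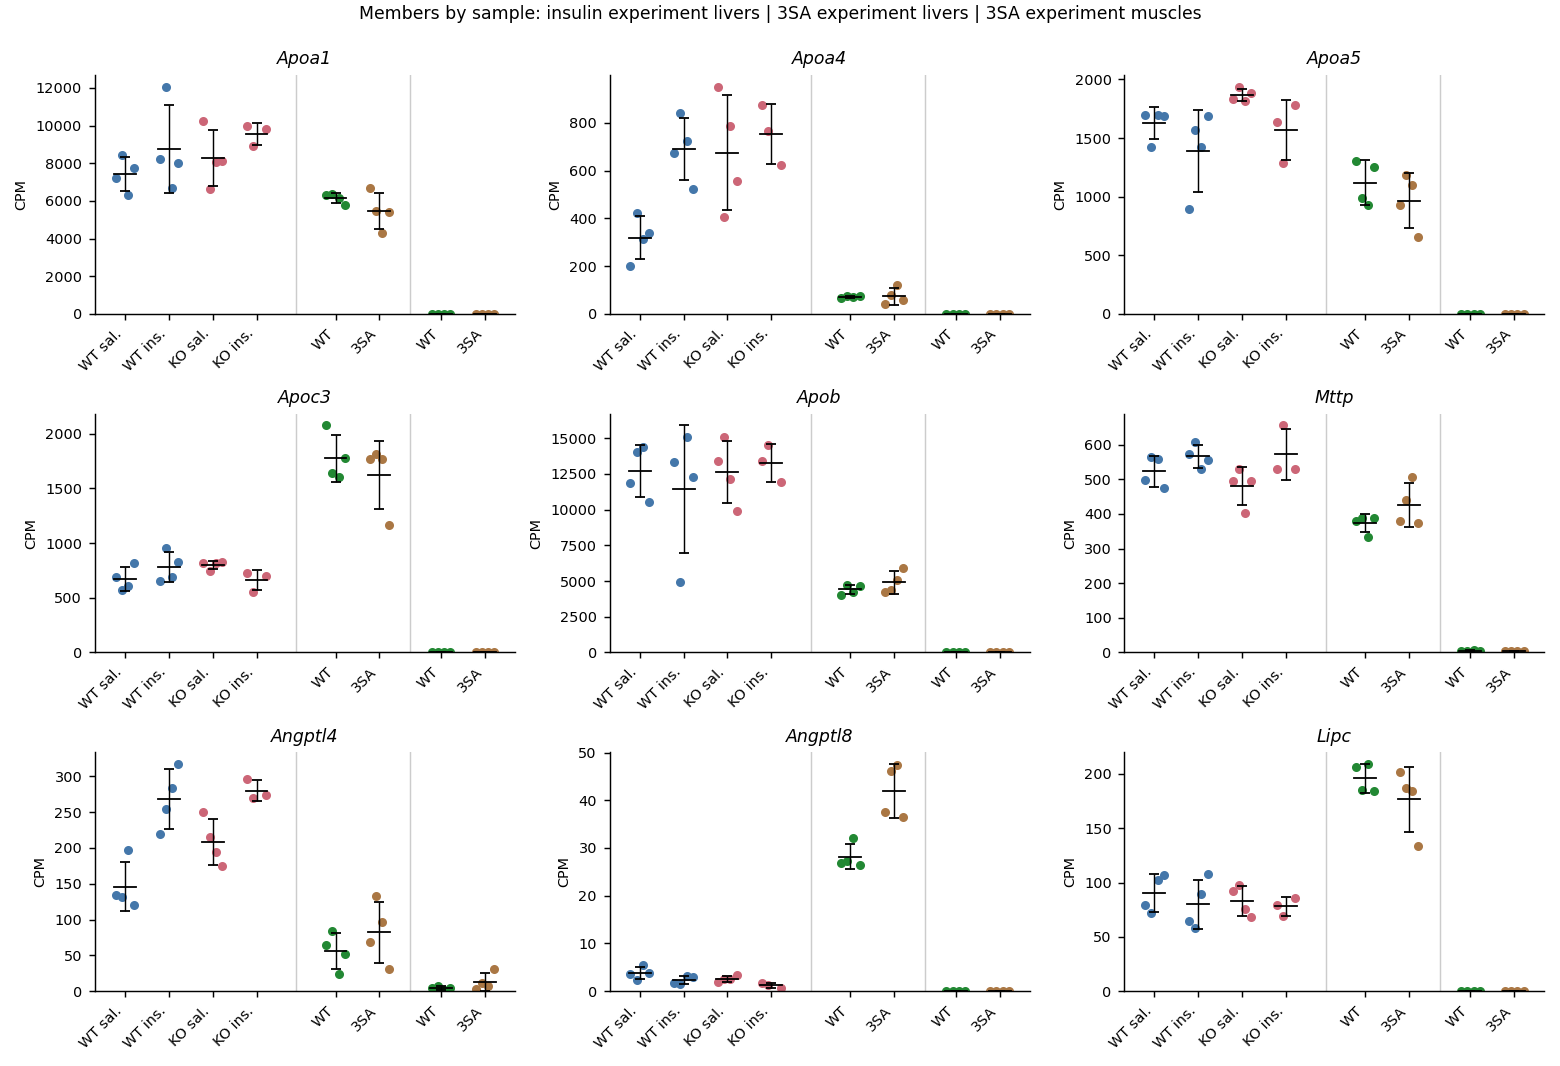
CPM of each member in every sample, 1 panel for each gene and 1 point for each sample, with the 8 groups along the axis. *Apoa4* ran from 201 to 421 in WT saline livers and from 524 to 841 in WT insulin livers, and *Angptl8* from 0.679 to 5.49 in the insulin experiment and from 26.4 to 47.5 in the livers of the other.

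*Apoa4* lies on chromosome 9 in a cluster of 43340 bases with *Apoa1*, *Apoc3* and *Apoa5*. *Apoa1* was 7221, 8433, 6322 and 7763 CPM in WT saline livers and 8235, 12074, 6670 and 7996 CPM in WT insulin livers. KO livers had 10244, 6651, 8065 and 8127 with saline and 9979, 8901 and 9818 with insulin. WT insulin liver 2 was the highest of all, and the groups overlapped in every comparison. Its log2 fold changes were 0.24 and 0.20 with insulin in WT and in KO, and 0.16 and 0.12 for KO against WT with saline and with insulin, and none passed. Without WT insulin liver 2, KO against WT with insulin was 0.32 and met the rule (adjusted p 0.283). Without KO saline liver 1, insulin in KO liver was 0.32 and also met it (adjusted p 0.278).

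*Apoc3* codes for an apolipoprotein that inhibits lipoprotein lipase and slows the uptake of remnants. It was 691, 567, 606 and 814 CPM in WT saline livers and 649, 953, 692 and 828 CPM in WT insulin livers. In KO livers it was 815, 745, 816 and 827 CPM with saline and 725, 555 and 698 CPM with insulin. The WT groups overlapped, while all 3 KO insulin livers lay below all 4 KO saline livers, which were within a narrow range apart from liver 2. With insulin the fitted change was 0.22 in WT, which did not pass, and -0.29 in KO, which was called (adjusted p 0.280) but in only 3 of 12 alternatives. Leaving out KO insulin liver 2 gave -0.17, leaving out KO insulin liver 4 -0.32, and leaving out KO saline liver 1, 3 or 4 -0.28, -0.27 or -0.27, none of them called. The interaction was -0.50 (95% interval -0.95 to -0.05, adjusted p 0.543). It was no longer called without KO insulin liver 2 (-0.39), WT saline liver 2 (-0.43), WT saline liver 3 (-0.46), WT insulin liver 2 (-0.39) or WT insulin liver 4 (-0.48), and it held in the other 14 of 19. KO against WT with saline, 0.26, passed the rule only without WT saline liver 4 (0.37) or without WT saline livers 1 and 4 (0.45).

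*Apoa5* codes for an apolipoprotein that promotes the hydrolysis of triglyceride. It was 1694, 1420, 1701 and 1686 CPM in WT saline livers and 1836, 1939, 1819 and 1881 CPM in KO saline livers. The KO livers all lay above the WT livers by a small margin, with a log2 fold change of 0.20 that was not called. With insulin it was 893, 1569, 1422 and 1687 in WT and 1634, 1286 and 1780 in KO, and its changes of -0.22 and -0.26 did not pass, although the KO insulin livers all lay below the KO saline livers. An antisense gene, *Gm47544*, shares 20.8% of its exon bases. It is listed in the 3SA table alone, with 0 counts there, and was not measured in the livers of the insulin experiment.

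*Apob*, whose protein is the scaffold of VLDL, was 11890, 14020, 14350 and 10503 CPM in WT saline livers and 13359, 4911, 15101 and 12296 CPM in WT insulin livers. KO livers had 13425, 15068, 12141 and 9914 with saline and 13390, 14520 and 11905 with insulin. WT insulin liver 2, the library with few counts on long transcripts, was far below the 14 others, and *Apob* has the longest transcript of the members. Insulin in WT liver gave -0.15, and 0.10 without that library; neither passed. The other log2 fold changes were 0.06 for insulin in KO, -0.01 for KO against WT with saline and 0.21 with insulin.

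*Mttp* codes for the large subunit of the transfer protein that lipidates apolipoprotein B. Its level was 498, 564, 559 and 475 CPM in WT saline livers, and the 15 livers of the experiment spanned 402 to 657. The groups overlapped in all 4 comparisons, with fold changes of 0.11 and 0.25 for insulin in WT and KO and of -0.12 and 0.00 for KO against WT with saline and with insulin, on the log2 scale. *Trmt10a*, which shares 7.36% of its exon bases on the other strand, was not called in any of the insulin, KO or 3SA comparisons.

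*Angptl4* codes for a secreted inhibitor of lipoprotein lipase. In WT saline livers it was 135, 132, 197 and 121 CPM. In WT insulin livers it was 219.7, 254, 284 and 317 CPM. Every insulin liver lay above every saline liver, the highest saline value being that of liver 3. *Angptl4* rose with a log2 fold change of 0.88 (95% interval 0.50 to 1.26, adjusted p 0.0226), and it was called in all 14 alternatives, from 0.70 to 1.06, with adjusted p from 9.62e-05 to 0.396. The adjusted p was 0.0817 without WT saline liver 1, 0.0629 without WT saline liver 2, 0.0882 without WT saline liver 4 and 0.0705 without WT insulin liver 4. Without WT saline livers 1 and 4 the change was 0.70 with an adjusted p of 0.396.

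In KO livers *Angptl4* was 250.03, 215, 194 and 174 CPM with saline and 297, 270.4 and 274 CPM with insulin. The KO insulin livers again lay above all KO saline livers, and KO saline livers 3 and 4 were below WT saline liver 3. Insulin in KO liver gave 0.42, called in all 12 alternatives, from 0.34 to 0.52 (adjusted p 0.125, from 0.0406 to 0.322). KO against WT with saline gave 0.51 (adjusted p 0.255, from 0.0879 to 0.701), called in all alternatives but the one without WT saline livers 1 and 4, where it was 0.35. With insulin, KO against WT was 0.05 and did not pass. The interaction was -0.45 (95% interval -0.94 to 0.03, adjusted p 0.593) and was not called. It met the rule without KO saline liver 4 (-0.53), without WT saline liver 3 (-0.63) or without WT insulin liver 1 (-0.54). The markers given above with *Apoa4*, among them *Tat*, *Acta1* and *Alas2*, moved in the same comparisons as *Angptl4*, and their part was not tested. Without WT insulin liver 3 its insulin effect in WT was 0.85 and called.

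*Angptl8* codes for a secreted protein that takes part in the inhibition of lipoprotein lipase and is known as a gene that feeding induces. Its counts in the fasted livers were low: 141, 87, 240 and 161 in WT saline, 64, 51, 133 and 121 in WT insulin, 73, 105, 112 and 152 in KO saline and 62, 46 and 25 in KO insulin. As CPM these were 3.64, 2.39, 5.49 and 3.73 in WT saline livers and 1.70, 1.44, 3.18 and 2.87 in WT insulin livers. KO saline livers had 1.92, 2.55, 2.43 and 3.37 CPM and KO insulin livers 1.61, 1.26 and 0.679 CPM. The WT groups overlapped, and all 3 KO insulin livers lay below all 4 KO saline livers, with insulin liver 4 the lowest of the experiment.

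*Angptl8* fell with insulin in KO liver by 1.12 on the log2 scale (adjusted p 0.128, from 0.0476 to 0.325). The call held in all 12 alternatives, from -1.40 to -0.83. In WT liver the change of -0.73 was not called (adjusted p 0.297), but it met the rule in 7 of 14 alternatives, among them without WT saline liver 2 (-0.90), WT insulin liver 3 (-0.92) or WT insulin liver 4 (-0.85). The interaction, -0.39, did not pass, so no difference in this effect between the genotypes was detectable. KO against WT with insulin gave -0.96 (adjusted p 0.492), with KO insulin liver 1 above WT insulin liver 2. This call ended without KO insulin liver 2 (-1.01), KO insulin liver 4 (-0.67), WT insulin liver 3 (-0.77) or WT insulin liver 4 (-0.84). It also ended with a replicate block. KO against WT with saline, -0.57, was not called (adjusted p 0.454), but was without KO saline liver 4 (-0.73) or WT saline liver 2 (-0.74).

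Markers of other cell types also differed in these comparisons. With insulin in KO liver all 4 pancreatic markers were called lower (*Cpa1* -6.17, *Prss2* -5.36, *Pnlip* -5.25 and *Cela1* -2.19), and without KO saline liver 1 or 4, the KO livers with the most of these transcripts, *Angptl8* was -1.23 or -0.96 and called. Of the 5 hepatocyte markers, with *Alb* the most abundant and none at 0, *Cps1* (0.74, no overlap) and *Tat* (0.73) were called higher. Their sum was 95256, 72137, 105890 and 73238 CPM in KO saline livers and 101540, 104970 and 95814 in KO insulin livers. *Fabp2*, the only 1 of the 5 enterocyte markers that passed the filter on low counts, was called lower (-0.36, adjusted p 0.237). *Hba-a2*, 1 of the 5 blood markers, was called higher (0.90, adjusted p 0.234). Blood markers summed to 249, 449 and 179.6 CPM in KO insulin livers, with *Hbb-bs* the most abundant and none at 0. In KO against WT with insulin the 4 pancreatic markers were again called lower, from -5.26 to -2.05, and *Cps1* (0.95, adjusted p 0.0739) and *Serpina1c* (0.41) were called higher, with *Alb* (0.23) and *Ahsg* (0.22) also higher without overlap but not called. Of the 5 skeletal muscle markers *Mylpf* (-2.19, adjusted p 0.340, no overlap) and *Myh4* (-4.75, adjusted p 0.462) were called lower, and *Tnnt3* was not tested. The 5 summed to 5.23, 0.933 and 0.299 CPM in KO insulin livers, with up to 2 at 0. *Acta1* was the most abundant in livers 1 and 4 and *Myh4* in liver 2. Of the 4 endothelial markers *Cdh5* was called higher (0.41, adjusted p 0.495, no overlap), and they summed to 113, 102 and 97.6 CPM in KO insulin livers, *Kdr* first and none at 0. The part of these cell types in the *Angptl8*, *Angptl4* and *Apoc3* results was not tested beyond that.

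*Lipc* codes for hepatic lipase. It ran from 58.5 to 108 CPM over the 15 livers of the insulin experiment, both ends in WT insulin livers. The groups overlapped in every comparison, and its log2 fold changes of -0.17 and -0.10 with insulin and of -0.12 and -0.04 for KO against WT did not pass.

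Promoter windows of RefSeq (GRCm38.p6), from 250 bases before to 50 after a start, were found for 7 of the 9 members, 9 windows in all. *Apoc3* and *Angptl4* had none. On both strands 4 motifs were searched, and the share of all 32851 windows that hold each is 1.28% for the ERR element TNAAGGTCA, 1.24% for the sterol element TCACNCCAC, 3.65% for the FOXO site TGTTTAC and 7.15% for the E-box CACGTG. The only match in the members was an E-box 82 bases before the start of *Apoa5*, and no match says only that these letters are not in this window. Shown are the bases of the window that lie before both its start and the first base of the gene in GENCODE, for *Apoa4* and *Angptl8*, the members with the largest changes in the livers, and for *Apoa5*, with the E-box in capitals. For *Apoa4* the GENCODE gene begins inside the window's upstream bases, so only 102 bases are shown.
Apoa4 chr9:46240594-46240695, + strand: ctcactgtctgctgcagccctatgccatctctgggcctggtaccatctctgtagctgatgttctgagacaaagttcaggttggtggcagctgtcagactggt
Angptl8 chr9:21835260-21835509, + strand: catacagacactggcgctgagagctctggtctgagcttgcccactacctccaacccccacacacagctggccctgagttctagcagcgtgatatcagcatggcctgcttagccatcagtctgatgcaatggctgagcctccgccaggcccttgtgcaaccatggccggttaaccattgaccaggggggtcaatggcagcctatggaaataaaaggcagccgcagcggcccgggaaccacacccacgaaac
Apoa5 chr9:46268358-46268607, + strand: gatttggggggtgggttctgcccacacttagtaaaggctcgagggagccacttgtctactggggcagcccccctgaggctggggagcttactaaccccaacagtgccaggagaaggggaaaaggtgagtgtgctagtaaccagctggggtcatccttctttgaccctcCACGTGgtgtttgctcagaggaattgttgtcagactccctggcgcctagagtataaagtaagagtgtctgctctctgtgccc

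The 3SA comparison in liver asks what an ERRα with altered phosphorylation sites changes. Of the 9 members 1 was called, *Angptl8*, beside 4.88% of 13339 genes, and it alone did not overlap, beside 4.89%. By edgeR no gene passed the adjusted p (0%), while 996 had an unadjusted p under 0.05, and DESeq2 gave 42. The members' medians were 0.05 and 0.17 absolute, with -0.00039 and 0.11 for all genes.

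*Angptl8* was 26.9, 27.4, 32.1 and 26.4 CPM in WT littermate livers and 37.5, 46.2, 47.5 and 36.5 CPM in 3SA livers. All 4 3SA livers lay above all 4 WT littermates, and 3SA livers 2 and 3 were the highest. The level rose by 0.59 on the log2 scale (95% interval 0.36 to 0.82, edgeR adjusted p 0.493, from 0.00325 by DESeq2 to 0.890), and it was called in all 13 alternatives, from 0.53 to 0.66. Without 3SA liver 1, the 3SA liver with the most pancreatic transcripts, it was 0.64 and called. Of the 4 stellate cell and fibroblast markers *Lrat* was called higher in 3SA liver (0.33, adjusted p 0.574), and they summed to 206, 228, 209 and 200.1 CPM in WT littermates and 221, 202, 221 and 216 CPM in 3SA livers, *Dcn* the most abundant. Of the 4 macrophage markers *Clec4f*, the most abundant, was higher without overlap (0.25, adjusted p 0.639) but not called. Their sum was 238, 256, 252 and 250.3 CPM in WT littermates and 289, 287, 247 and 319 CPM in 3SA livers. No marker of these 2 lists was at 0, and their part in the *Angptl8* result was not tested. *Angptl8* lies within *Dock6* on the opposite strand and shares 0 exon bases with it. *Dock6* was 26.8, 26.9, 26.4 and 23.4 CPM in WT littermates and 25.7, 23.9, 30.0 and 14.1 CPM in 3SA livers, and it was not called in any of the insulin, KO or 3SA comparisons.

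The other members were not called in 3SA liver. *Angptl4* was 64.3, 83.8, 24.2 and 52.3 CPM in WT littermates and 68.8, 132, 96.4 and 31.2 CPM in 3SA livers. The groups overlapped widely, and the fitted 0.56 met the rule only without 3SA liver 4 (0.83, adjusted p 0.468). *Mttp* was 381, 389, 334 and 388 CPM in WT littermates and 381, 442, 508 and 374 CPM in 3SA livers, a log2 fold change of 0.20. *Apob* had 0.17, *Lipc* -0.14, *Apoc3* -0.11, *Apoa1* -0.16 and *Apoa5* -0.20. *Apoc3* and *Lipc* were lowest in 3SA liver 4, the library with the low hepatocyte markers, at 1162 and 134 CPM. That library also had a difference between long and short transcripts of 0.29, where the other livers of its experiment had -0.10 to 0.04. Without that library the log2 fold change of *Apoc3* was 0.01 and that of *Lipc* -0.03, and neither passed.

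In WT littermate muscle all 9 members were lower than in WT littermate liver and all were called, beside 84.2% of 14886 genes. All passed the adjusted p, beside 86.5%, and none overlapped, beside 82.9%. For 7 of them these calls are no more than a description, since with 0 to 9 muscle counts they passed the filter only through liver, and their fold changes are given as bounds or with counting intervals. Hepatocyte markers summed to 0.811, 1.22, 0.419 and 1.49 CPM in these muscles, and skeletal muscle markers (*Ckm*, *Acta1*, *Myh4*, the most abundant, *Mylpf* and *Tnnt3*) to 105070, 104340, 110850 and 117650 CPM.

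Only *Mttp* and *Angptl4* had counts in muscle that could be followed. *Mttp* had 525 counts over the 4 WT littermate muscles and was 75.6-fold higher in liver (95% counting interval 69.4 to 82.5). *Angptl4* had 463 counts and was 13.1-fold higher in liver (12.0 to 14.4). *Angptl8* had 9 counts, a ratio of 331 (175 to 724). *Apob* and *Apoc3* had 6 counts each. Their ratios were 77665 (35682 to 211630) and 31739 (14582 to 86485). *Apoa5* had 2 counts and a ratio of 59997 (16609 to 495410). *Apoa1* and *Apoa4* had 1 count each. These give ratios of 656190 (117770 to 25918000) and 7553 (1356 to 298340). *Lipc* had 0 counts and was at least 6959-fold higher in liver at a floor of 3 counts, while the lower limit of the 95% interval used for the others was 5659. Such intervals and floors cover counting error only.

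The 3SA comparison in muscle could test 2 members, *Angptl4* and *Mttp*; the other 7 did not pass the filter on low counts. Called was 1 of the 2, *Angptl4*, beside 4.54% of 14081 genes, and none was free of overlap, beside 4.37%. No gene passed the adjusted p by edgeR (0%), with 672 at an unadjusted p under 0.05 and 56 by DESeq2. *Angptl4* was 4.83, 7.01, 1.83 and 3.82 CPM in WT littermate muscles and 3.06, 10.7, 6.51 and 31.4 CPM in 3SA muscles. 3SA muscle 4 was far above all others, 3SA muscle 1 was within the WT littermates, and 3SA muscle 3 lay below WT littermate muscle 2. The log2 fold change was 1.56 (95% interval 0.10 to 3.01, adjusted p 1.00). Without 3SA muscle 4 it was 0.65 and not called, without 3SA muscle 1 it was 1.89, and without both, 0.98 (adjusted p 0.0705). It was also no longer called without WT littermate muscle 1 (1.61), 3 (1.30) or 4 (1.497), or with a replicate block.

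Markers of other cell types were read beside *Angptl4*. The 4 macrophage markers summed to 5.71, 5.87, 9.32 and 7.00 CPM in WT littermate muscles and 6.56, 6.69, 6.84 and 41.0 CPM in 3SA muscles, with *Cd68* the most abundant in 3SA muscle 4, *Adgre1* in the others, and 1 or 2 of the 4 at 0 counts in each. The 5 adipocyte markers (*Adipoq*, *Plin1*, *Lep*, *Cfd*, the most abundant, and *Retn*) summed to 127, 114, 76.3 and 59.8 CPM in WT littermates and 76.7, 89.6, 83.0 and 66.2 CPM in 3SA muscles, none at 0. Of these *Retn* was called lower in 3SA muscle (-1.22, adjusted p 0.318, no overlap) and the other 4 were not called. Of the 5 blood markers, *Hbb-bs* the most abundant, *Hba-a2* was called higher (0.93, adjusted p 1.00), and they summed to 92.5, 119, 83.2 and 77.4 CPM in WT littermates and 92.2, 78.5, 105 and 166 CPM in 3SA muscles. Of the 4 endothelial markers *Cdh5* was lower without overlap (-0.18, adjusted p 1.00) but not called, with sums of 236, 218, 252 and 229.7 CPM in WT littermates and 272, 232, 219 and 232 CPM in 3SA muscles, *Cdh5* or *Pecam1* first. None of these was at 0. Skeletal muscle markers summed to 173390, 106430, 109540 and 84558 CPM in 3SA muscles. The muscle with the most *Angptl4* was thus the one with the most macrophage and blood and the least muscle transcripts, and their part in the result was not tested. The plot of *Angptl4* against these sums shows 3SA muscle 4 apart in the macrophage sum and within the others in the adipocyte sum.

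**Figure D4:**
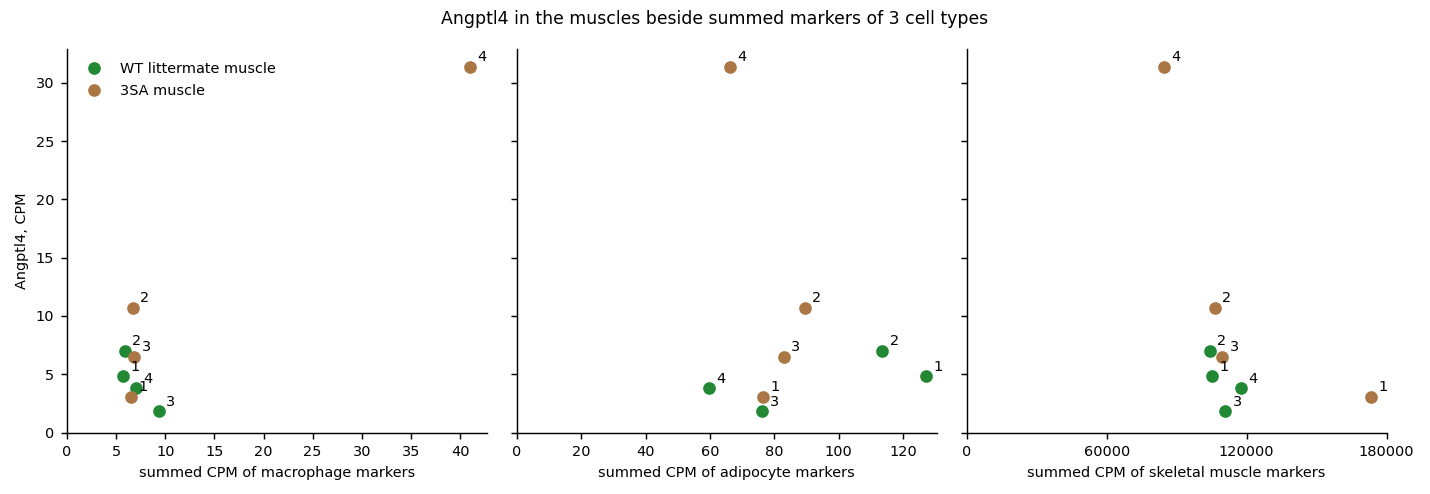
*Angptl4* (CPM) in each muscle against the summed CPM of macrophage, adipocyte and skeletal muscle markers, with replicate numbers. 3SA muscle 4 stood apart with 31.4 CPM of *Angptl4* and 41.0 CPM of macrophage markers.

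*Mttp* in muscle was 3.42, 4.73, 6.32 and 5.43 CPM in WT littermates and 4.70, 4.05, 5.50 and 3.62 CPM in 3SA mice. The groups overlapped, and -0.14 did not pass. The difference between the 3SA effects in muscle and liver could be followed for *Angptl4* and *Mttp* alone. It was 0.96 for *Angptl4* (95% interval -0.77 to 2.69, adjusted p 0.999) and -0.37 for *Mttp* (-0.89 to 0.15, adjusted p 0.971), and neither was called. *Mttp* met the rule only without WT littermate muscle 1 (-0.52). The other 7 members entered this fit only through their liver counts. *Angptl8*, with 1, 3, 3 and 2 counts in WT littermate muscles and 0, 0, 0 and 1 in 3SA muscles, and *Lipc*, with 0, 0, 0 and 0 and 8, 0, 1 and 0, met the rule there, beside 5.57% of 15688 genes, and nothing is read from these calls. No gene passed the adjusted p in edgeR (0%), with 881 at an unadjusted p under 0.05 and 27 by DESeq2. The plot of the alternatives shows how far each called value in the livers and *Angptl4* in muscle moved.

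**Figure D5:**
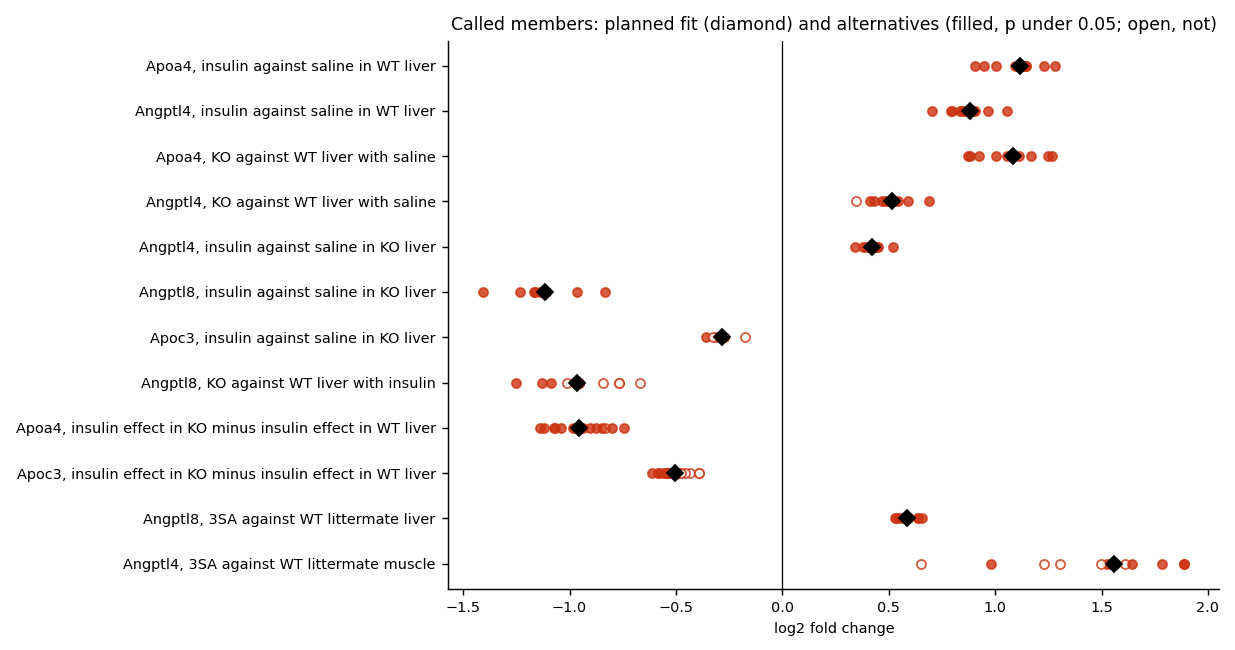
Log2 fold change of each called member in the planned fit (diamond) and in each alternative (filled where p was under 0.05, open where not). *Apoa4* with insulin in WT liver stayed between 0.91 and 1.28, and *Angptl4* in 3SA muscle ranged from 0.65 to 1.89.

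Other genes of the pathway were taken from 5 short lists, and their counts are given beside the share of all genes called, which is 17.2% for insulin in WT and in KO liver, 11.3% for KO against WT with saline and 9.99% with insulin, and 8.79% for the interaction. With so few genes in a list, these counts are a description. Among 8 other apolipoproteins, 1 was called with insulin in WT liver, beside 17.2% of all genes, *Apoc2* (0.48, adjusted p 0.103), whose protein activates lipoprotein lipase, and 1 in KO liver, *Apom* (0.30, lost in 5 of 12 alternatives). In KO against WT with saline 3 were higher: *Apoc2* (0.64, adjusted p 0.104), *Apof* (0.47) and *Apoc4* (0.32, lost in 2 of 14). *Apoc2* was 101, 81.0, 99.1 and 115 CPM in WT saline livers and 149, 166, 162 and 142 CPM in KO saline livers. It was 113, 151, 139 and 147 CPM in WT insulin livers and 143, 101 and 138 CPM in KO insulin livers. All KO saline livers lay above all WT saline livers, and its interaction, -0.75, was called in all alternatives (adjusted p 0.422). None of the 8 was called in KO against WT with insulin or in 3SA liver, and neither was *Apoc1* or *Apoe*, the only 2 tested, in 3SA muscle.

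Among 11 genes of lipoprotein assembly and export, 2 were higher and 2 lower with insulin in WT liver, beside 17.2% of all genes called. *Mia3*, which acts in the export of large cargo from the endoplasmic reticulum, was 379, 394, 401 and 393 CPM with saline and 334, 233, 275 and 265 CPM with insulin. Every insulin liver lay below every saline liver (-0.50, adjusted p 0.0630), and the others called were *Vmp1* (0.42, lost in 1 of 14 alternatives), *Sar1b* (0.35, lost in 3) and *Sort1* (-0.54, lost in 7). In KO liver only *Pla2g12b* was called (-0.26, lost in 9 of 12 alternatives). In KO against WT, 3 were called with saline, *Mia3* (-0.41), *Sort1* (-0.70) and *Pla2g12b* (0.29, lost in 2 of 14). With insulin 4 were called, *Sar1b* (-0.62), *Tm6sf2* (-0.48), *Mia3* (0.34, lost in 6 of 12) and *Vmp1* (-0.31, lost in 6). *Sar1b*, a GTPase of the same export step, was 132, 169, 136 and 147 CPM in WT insulin livers and 98.5, 96.1 and 93.6 CPM in KO insulin livers, with every KO liver the lower (adjusted p 0.166). The interaction was called for *Mia3* (0.77), *Sar1b* (-0.59), *Pla2g12b* (-0.46) and *Tm6sf2* (-0.67, lost in 9 of 19).

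Among 7 lipases, lipase partners and plasma lipid transfer genes, 2 were called with insulin in WT liver, beside 17.2% of all genes. *Gpihbp1*, whose protein carries lipoprotein lipase to the capillary wall, was 6.07, 6.24, 8.07 and 5.37 CPM with saline and 10.4, 14.3, 10.7 and 13.3 CPM with insulin. All insulin livers lay above all saline livers (0.92, adjusted p 0.0226), and its call held in all alternatives, as did that of its interaction (-0.90, adjusted p 0.422). *Gpihbp1* is expressed in endothelium, whose 4 markers (*Pecam1*, *Cdh5*, *Kdr*, the most abundant, and *Tie1*) summed to 80.1, 142, 116 and 119.9 CPM with saline and 81.2, 71.0, 108 and 108 CPM with insulin, none at 0. Of these 1 was called, *Kdr*, lower with insulin (-0.60, adjusted p 0.186, groups overlapping). Of the 4 stellate cell and fibroblast markers (*Lrat*, *Reln*, *Dcn*, the most abundant, and *Col1a1*), which summed to 147, 186, 157 and 158 CPM with saline and 164, 147, 181 and 161 CPM with insulin, none at 0, *Lrat* was lower (-0.88, adjusted p 0.0339, no overlap). The part of these cell types in the insulin results was not tested. *Lipg* was lower with insulin in WT (-0.90, adjusted p 0.196, lost in 4 of 14 alternatives) and in KO (-0.81, adjusted p 0.121). In KO against WT with saline *Gpihbp1* (0.58, lost in 1 of 14) and *Lmf1* (-0.27, lost in 6) were called, and with insulin none.

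Among 6 receptors and efflux genes, 2 were called with insulin in WT liver, beside 17.2% of all genes. *Sdc1*, a heparan sulfate receptor for remnants, was 250.2, 271, 259 and 286 CPM with saline and 406, 436, 367 and 428 CPM with insulin. The groups did not overlap (0.62, adjusted p 0.0161), and *Lrp1* was lower (-0.83). *Lrp1* is long, and WT insulin liver 2 had 330 CPM of it, the lowest value. In KO liver *Lrp1* was 1844, 1497, 1571 and 1361 CPM with saline and 1015, 931 and 919.7 CPM with insulin (-0.72, adjusted p 0.0228), again without overlap, and *Vldlr* (-1.93, lost in 3 of 12) and *Lsr* (-0.39, lost in 5) were called. In KO against WT with saline 1 of the 6 was called, *Sdc1* (0.44, lost in 3 of 14), with insulin none, and the interaction was called for *Sdc1* (-0.66, adjusted p 0.461).

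Among 10 transcription factors known for these genes, 4 were called with insulin in WT liver, beside 17.2% of all genes, *Mlxipl* (-0.81, adjusted p 0.0319), *Ppargc1a* (1.22), *Esrra* (0.67) and *Hnf4a* (0.44), the last 2 lost only without WT saline livers 1 and 4. *Mlxipl*, the gene of ChREBP, was 74.2, 48.3, 68.8 and 80.2 CPM with saline and 36.1, 31.1, 42.8 and 44.96 CPM with insulin in WT livers. No insulin liver reached a saline liver. In KO liver 3 were called, *Srebf1* (-0.77), *Mlxipl* (-0.46) and *Hnf4a* (0.51). In KO against WT, *Srebf1* was lower with insulin (-1.12, adjusted p 0.176) and *Foxo1* higher (0.46, lost in 8 of 12 alternatives), and with saline *Ppargc1a* was higher (0.95, lost in 7 of 14). In 3SA liver only *Mlxipl* of the 5 lists was called (-0.27, lost in 4 of 13 alternatives), beside 4.88% of all genes. In 3SA muscle *P4hb* (0.35), *Srebf1* (-0.66) and *Ppara* (0.39) were called, lost in 6, 5 and 8 of 14, beside 4.54% of all genes.

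Over the 15 livers of the insulin experiment, the genes most alike to 3 members were sought among 10988 genes by Pearson's r of log2 CPM. The livers fall into 4 groups, so these values are a description. *Apoa4* was most like *Hapln1* (0.91), *Clca3a1* (0.88) and *Itga2* (0.87), *Angptl4* most like *Riok3* (0.90), *Col12a1* (0.90) and *Sqstm1* (0.89), and *Angptl8* most like *Tfeb* (0.89), *Amigo2* (0.89) and *Gatm* (0.89).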

How the data were processed

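Both deposited tables give raw counts for each gene, which the authors obtained with STAR on mm10 (submitters' processing notes). Members and lists were chosen with earlier results of these data known, and genes beyond the members come from lists by role, named up to 4 per list and comparison by smallest p (counts are of all called). A few genes of these lists are not reported here. Genes were filtered with filterByExpr, scaled by TMM and tested with edgeR 4.0.16 (quasi-likelihood) in R 4.3.3, with only the groups of a comparison in its fit and Benjamini-Hochberg adjustment over all genes tested. Alternatives were DESeq2 1.42.0, RLE size factors, no filter, all groups in 1 fit, a replicate block and each library left out. Leaving out 3SA muscles 1 and 4, or WT saline livers 1 and 4, was added after the data were seen. CPM, marker sums, counting intervals and figures used Python 3.11.15, numpy 2.4.6, pandas 2.3.3, scipy 1.17.1 and matplotlib 3.10.9. Samples of the insulin experiment had a median depth of 39250853 counts, those of the other 24805758. KO insulin replicate 3 is not in the deposited table.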

Additional observations from a re-analysis of the deposited data

Results flagged for a closer look

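A value was set apart when its distance from its nearest neighbour, as a share of its group's range, passed Dixon's limit for 4 values. Of 63 groups (49 of members with at least 10 counts, 14 of library measures), 8 held such a value, and chance sets apart about 1 in 20 groups. *Apoa5* was lowest in WT saline liver 2 (0.950 of the range), *Apoc3* in 3SA liver 4 (0.933) and in KO saline liver 2 (0.857), and *Mttp* in WT littermate liver 3 (0.861). The mitochondrial share was highest in 3SA muscle 1 (0.931) and KO saline liver 3 (0.927) and lowest in WT insulin liver 2 (0.875). The difference between long and short transcripts was highest in 3SA muscle 1 (0.900).

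By unadjusted p, the insulin effect on *Apoa4* (-0.96) and *Apoc3* (-0.50) differed between KO and WT. The fitted differences in the 3SA effect on *Angptl8* (-3.26) and *Lipc* (4.30), muscle minus liver, rest on muscle groups at or near 0 counts, so their size is not measured. None passed an adjusted p of 0.05.

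The limits are 3 or 4 mice a group, bulk tissue, 1 time after injection, pancreatic transcripts in some livers, and muscle counts near 0 for 7 members. The files hold RNA alone. The labels do not say whether replicate numbers pair samples, and the planned fits did not pair them. Of 26 pairs with the same number, 5 had a correlation over 0.1 (-0.22 to 0.33), which does not settle the question.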

How the results depend on the processing

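For members, 1090 log2 fold changes were refitted: 1043 stayed called or not called, 29 lost a call and 18 gained one, and 0 called values changed sign.

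Counts of genes past the adjusted p also moved with the alternatives. For insulin in WT liver they were 936 by DESeq2, 766 with all groups in 1 fit and 105 to 409 with a library left out. For insulin in KO liver they were 988 by DESeq2, 640 without the filter, 262 with all groups and 42 to 608 with a library left out. For KO against WT with saline they were 248 by DESeq2, 30 without the filter and 2 to 47 with a library left out. With insulin they were 241 by DESeq2, 31 without the filter, 96 with all groups and 3 to 48 with a library left out. There the block left 0 members called and a library left out 0 to 2, with 818 to 1778 genes called. The interaction gave 20 by DESeq2, and 1 to 3 members called with a library left out.

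For 3SA liver the adjusted count was 42 by DESeq2 and 2 without the filter, which called 1050 genes, and a library left out gave 1 to 2 members called. For 3SA muscle it was 56 by DESeq2, 2 with all groups and 0 to 464 with a library left out. There the members called were 3 without the filter, 3 with all groups, 0 with the block and 0 to 1 with a library left out. Genes called were 1071 without the filter, 1013 with all groups, 334 with the block and 378 to 2506 with a library left out, the last without 3SA muscle 1. The 3SA difference between tissues gave 27 by DESeq2, 1 without the filter and 0 to 369 with a library left out, with 1 to 2 members and 710 to 2766 genes called.

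Without 3SA muscles 1 and 4, 2597 genes were called in muscle, 1505 past the adjusted p, and the difference between tissues had 1 member and 2777 genes called, 392 past it. Without WT saline livers 1 and 4, insulin in WT liver had 1353 genes called, 1 past the adjusted p, and KO against WT with saline had 3 past it. The cause was not tested.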
